A study of Mus musculus with 63 samples.

Results

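The hormone and serotonin genes of the enteroendocrine cell were examined in mouse intestinal tumours: *Tph1*, *Gcg*, *Cck*, *Sct*, *Gip*, *Sst*, *Nts*, *Pyy*, *Ghrl* and *Tac1*. The members were taken by gene symbol, and all 10 were found among the 24766 genes of the expression table. Bulk RNA-seq had been run on 63 tumour samples from 2 mice. In 20 heterotypic tumours, which are tumours built from more than 1 clone, the clones had been separated, giving 20 major and 20 minor clones, 10 of each per mouse. A further 23 tumours carried no clone letter and are called undivided tumours here, 10 from the female mouse and 13 from the male mouse. The study's text counts fewer monoclonal tumours than these, and which samples it leaves out was not determined, so these samples are not called monoclonal. The labels place each sample in SI10, SI20 or SI30 and do not explain these segment names.

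Every sample came from the same genetic background and treatment. The mice were C57BL/6 Apchet animals, which carry 1 floxed *Apc* allele, with Villin-creERT2 and the R26R-Confetti reporter. The Villin promoter confines Cre to intestinal epithelium. Mice aged over 8 weeks received 4 mg tamoxifen, and ENU, a chemical mutagen, was given 10 days later at 200 mg per kg. No untreated tissue was analysed here. Because 1 mouse was female and the other male, sex and animal cannot be told apart. Tumours were the replicates throughout, so each p-value measures the spread between tumours of these mice and not between animals.

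Enteroendocrine cells are scattered secretory cells of the gut epithelium that arise from crypt progenitors expressing *Neurog3*. They sense the gut contents and release peptide hormones or serotonin. Different hormones mark different sublineages and regions: in the mouse, cells making gastric inhibitory polypeptide and ghrelin are commoner in the proximal small intestine, and cells making neurotensin, proglucagon peptides and peptide YY are commoner distally. *Tph1* encodes tryptophan hydroxylase 1, the rate-limiting enzyme of serotonin synthesis in enterochromaffin cells, which often also express *Tac1*, the precursor of substance P. *Tph1* is expressed in mast cells too, and *Tac1*, *Sst*, *Cck* and *Nts* are also neuronal genes.

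All members lie outside one another on the mouse genome (GRCm39). *Tph1* spans chr7:46294065-46321965 with 11 exons in its canonical transcript, *Gcg* spans chr2:62304873-62313997 with 6, and *Cck* spans chr9:121315695-121324863 with 3. *Sct* (chr7:140858243-140859052), *Sst* (chr16:23707321-23711733), *Nts* (chr10:102317614-102326396), *Pyy* (chr11:101997502-101998658) and *Ghrl* (chr6:113693080-113696844) are, like those before them, on the minus strand. *Gip* (chr11:95909127-95921657) and *Tac1* (chr6:7554120-7565834) are on the plus strand. *Cck* overlaps the antisense genes *Gm68675* and *Gm69828*, and *Ghrl* overlaps *Gm26982* and *Gm44033*. The values of *Cck* and *Ghrl* are uncertain to the extent that reads of those genes were shared with them.

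The promoters of *Tph1*, *Cck*, *Sct* and *Sst* are shown because these were the members called between undivided tumours and minor clones, described below. Each is the 250 bases before a RefSeq start site, read on the minus strand, from a table built on GRCm38.p6 and placed on GRCm39 by a unique exact match. Capitals mark the E-box letters CANNTG, the cyclic AMP response element TGACGTCA and the TATA box letters TATAAA, which were searched on both strands. The windows lie at chr7:46316802-46317051 for *Tph1*, chr9:121324761-121325010 for *Cck*, chr7:140859047-140859296 for *Sct* and chr16:23709595-23709844 for *Sst*.
Tph1: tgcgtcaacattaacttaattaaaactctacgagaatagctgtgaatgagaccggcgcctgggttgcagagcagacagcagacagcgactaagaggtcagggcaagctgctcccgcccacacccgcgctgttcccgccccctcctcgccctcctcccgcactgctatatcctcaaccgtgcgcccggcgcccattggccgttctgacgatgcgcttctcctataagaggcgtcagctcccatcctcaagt
Cck: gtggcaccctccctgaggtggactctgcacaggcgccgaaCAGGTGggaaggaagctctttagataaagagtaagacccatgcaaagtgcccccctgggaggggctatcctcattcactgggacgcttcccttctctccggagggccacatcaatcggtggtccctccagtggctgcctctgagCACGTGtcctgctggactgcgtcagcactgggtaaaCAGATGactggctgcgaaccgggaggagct
Sct: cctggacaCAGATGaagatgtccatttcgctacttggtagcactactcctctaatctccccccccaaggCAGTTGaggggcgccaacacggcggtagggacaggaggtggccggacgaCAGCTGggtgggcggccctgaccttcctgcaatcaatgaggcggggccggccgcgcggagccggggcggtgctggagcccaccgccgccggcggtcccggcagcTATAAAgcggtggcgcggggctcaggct
Sst: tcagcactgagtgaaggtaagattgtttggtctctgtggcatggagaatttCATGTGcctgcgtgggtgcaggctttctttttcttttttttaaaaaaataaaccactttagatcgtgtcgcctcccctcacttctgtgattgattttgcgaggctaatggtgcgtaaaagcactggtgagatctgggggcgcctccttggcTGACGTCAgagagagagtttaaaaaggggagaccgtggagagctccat

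The members had 15 such windows, with more than 1 for some genes. CANNTG was present in 11 of the 15 (73.3%) and in 66.2% of 32841 windows of all genes, and neither window of *Tph1* held it. TGACGTCA was found in *Sst* alone among the members, with its first base at -48, and in 1.55% of all windows. TATAAA was found in 2 of the 15 windows, those of *Sct*, with its first base at -28, and *Gcg*, and in 12.4% of all windows. The matches describe letters in these windows and not factor binding.

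Expression values are normalised counts: estimated reads per gene that the depositors had scaled between samples. Differences between groups are on the log2(normalised count + 1) scale, and a gene was called where limma's moderated test gave a Benjamini-Hochberg adjusted p under 0.05 over all genes with a mean of at least 10. All 10 members passed that filter. Normalised counts summed to between 26140200 and 45909900 per sample. Per kilobase of canonical transcript, which allows levels of different genes to be set side by side, *Gip* had the highest median over all 63 samples at 1192. *Sct* followed at 426 per kilobase. *Ghrl*, *Sst* and *Pyy* were close to one another at 179, 176 and 158 per kilobase. *Cck* had 99.6, and *Tph1*, *Gcg* and *Nts* stood at 45.3, 43.5 and 40.4 per kilobase. *Tac1* was lowest at 26.2 per kilobase. The ranges of every one of these genes overlapped those of its neighbours in that order.

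The epithelial marker *Epcam* was between 31001 and 74424 in every sample. Of 13 enteric neuron markers, *Elavl3*, *Elavl4* and *Vip* had a median of 0 over all samples and *Chat* a median of 0.487. Others of that list were present, with medians of 967 for *Ret*, 124 for *Tubb3*, 96.8 for *Stmn2*, 74.4 for *Uchl1* and 54.1 for *Nos1*, and the part of neuronal RNA in the member values was not tested. Among 6 glial markers *Sox10* and *Gfap* had a median of 0. Of 10 mast cell markers, *Mcpt1* had a median of 314, *Mcpt2* 688 and *Hdc* 38.8. *Tpsb2* and *Cpa3* had medians of 16.9 and 14.9. The rest were lower, with *Fcer1a* at 5.67, *Cma1* at 3.83, *Ms4a2* at 1.94, *Cma2* at 0.779 and *Tpsab1* at 0. In bulk samples fewer cells of a type and less RNA per cell cannot be told apart. The male undivided tumours 15, 17 and 18 were among the samples least like the rest, with median correlations to other samples of 0.872 to 0.889 against 0.889 to 0.951 for the others. Ribosomal *Rn18s* took a median of 1.24% of a sample's values among major clones, 6.19% among minor clones and 3.11% among undivided tumours.

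Comparing the clones of the same tumour asked whether the larger and smaller partner differed in hormone expression. *Tph1* was higher in major than in minor clones, by 1.65-fold, in 17 of 20 tumours. None of the 9 peptide hormone genes was called, although each had an estimate above 0. The call was 1 member of 10, and 1.14% of the 16428 genes tested were called, 0.670% of them upward. An estimate above 0 was found for 51.8% of all genes. The members' median log2 fold change was 0.43, against 0.0074 for all genes tested. Unadjusted p-values were under 0.05 for 4 members, *Tph1*, *Sst*, *Sct* and *Cck*, and for 22.4% of all genes.

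*Tph1* ranged from 95.8 through a median of 248 to 353 normalised counts in major clones and from 70.9 through 121 to 302 in minor clones. The ranges overlapped, and the separation lay within tumours. The mean log2 difference was 0.72 (SE 0.15, adjusted p = 0.0334, limma), and a permutation test of the 20 within-tumour differences gave a two-sided p of 0.00021. The difference ran from -0.29 to 2.02 between tumours. It was above 0 in 8 of 10 tumours of the female mouse, with a mean of 0.76, and in 9 of 10 of the male mouse, with a mean of 0.68. In female tumours 23 and 28 and male tumour 22 *Tph1* was lower in the major clone, in each by less than 1.5-fold. In 9 of 20 tumours the clones lay within 1.5-fold of each other.

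The *Tph1* call was close to the threshold. It was lost in either mouse alone (female log2 difference 0.76, adjusted p = 0.659; male 0.68, adjusted p = 0.103) and in 7 of 20 fits that left out 1 tumour: female tumours 22 and 26, and male tumours 20, 25, 26, 27 and 29. Without the tumour pairing the estimate was the same and the adjusted p was 0.136 (limma).

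**Figure D1:**
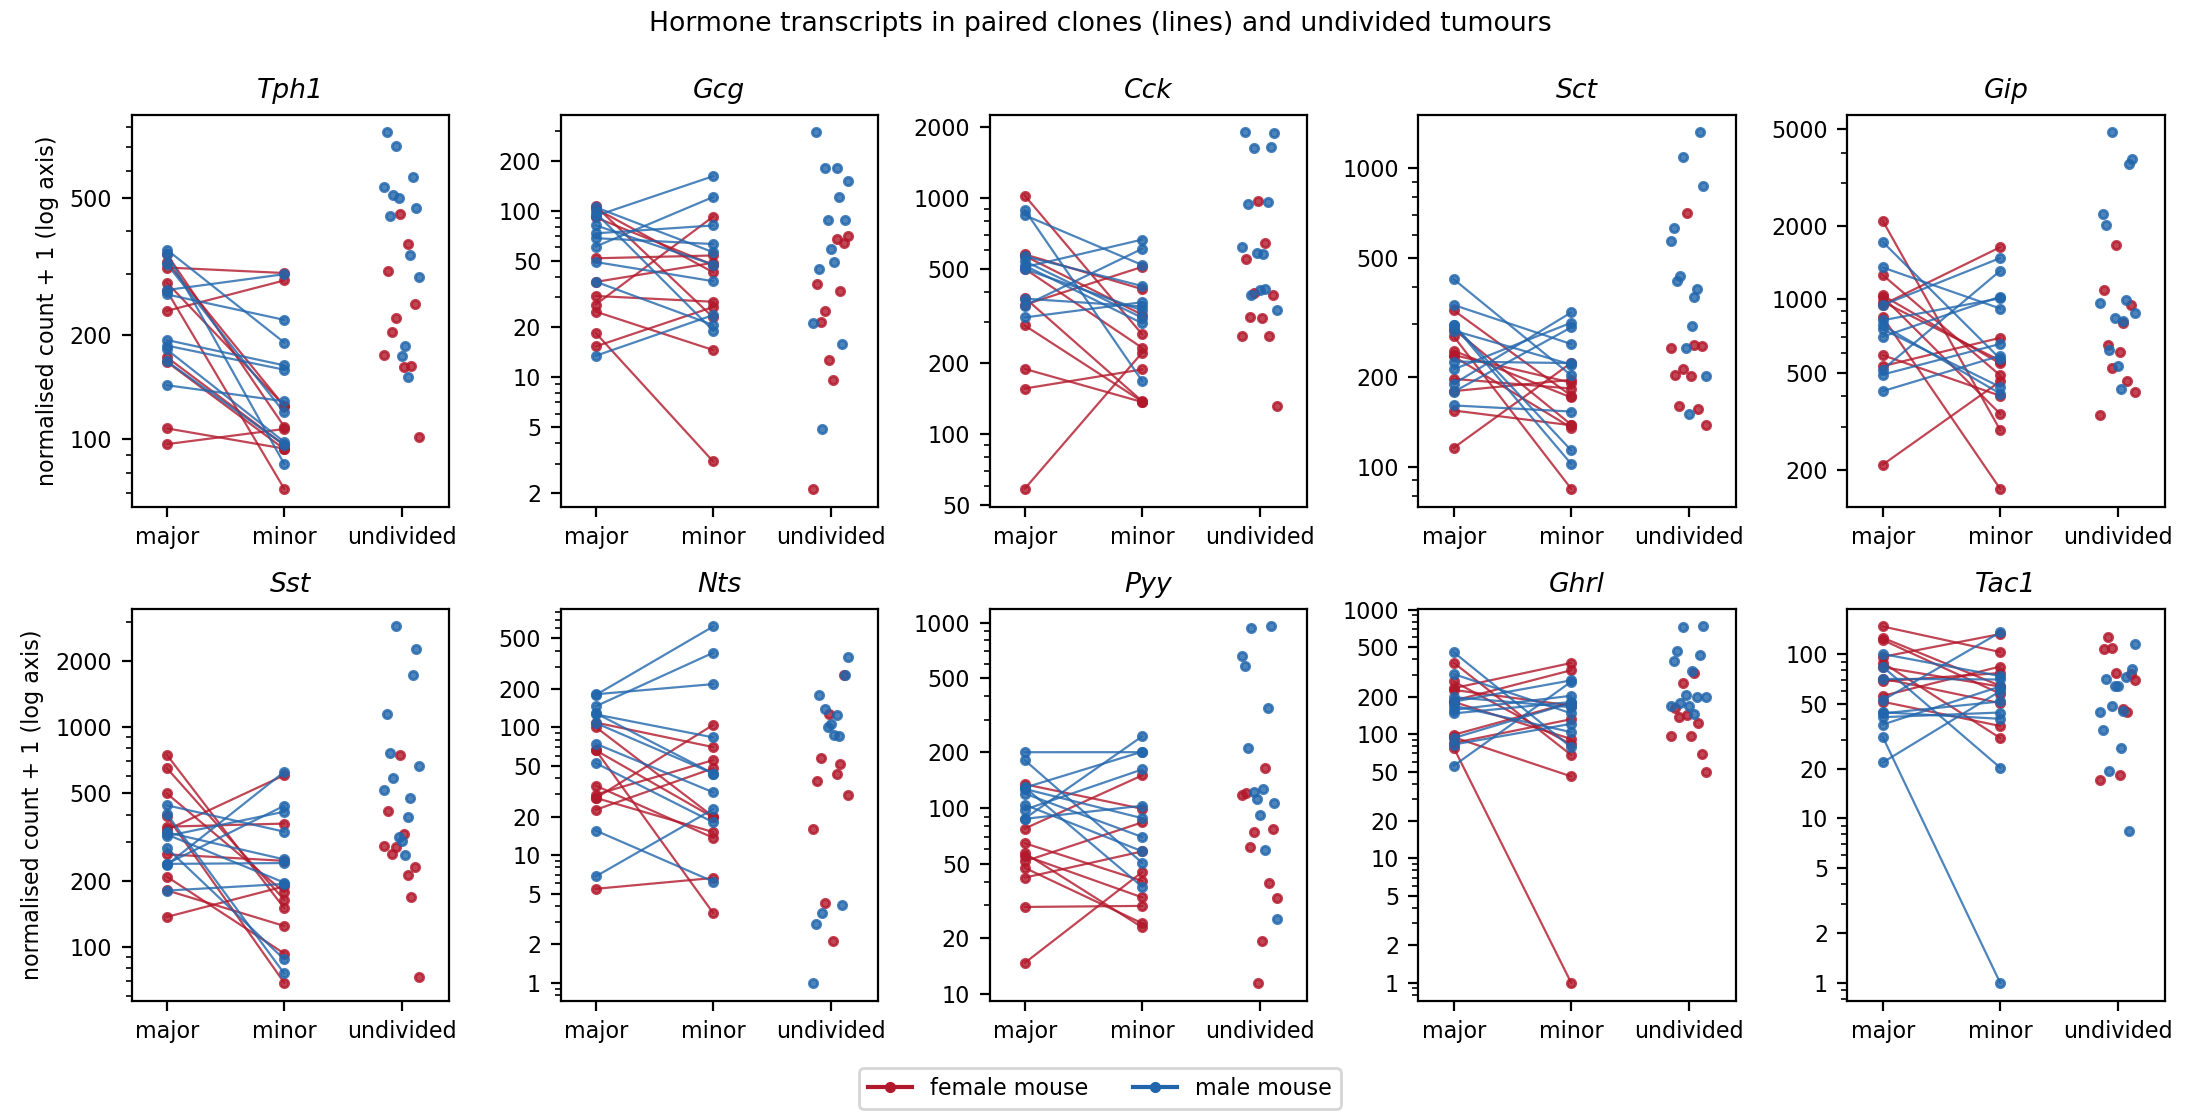
Normalised count + 1 on a log axis for each member in the major and minor clone of 20 heterotypic tumours, joined by a line per tumour, and in 23 undivided tumours. Points are samples coloured by mouse. Most *Tph1* lines fall from major to minor, in 17 of 20 tumours, while the lines of *Pyy* and *Ghrl* go either way, with 10 of 20 higher in the major clone.

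The 3 hormones next to *Tph1* by p-value were *Sst*, *Sct* and *Cck*. *Sst* encodes somatostatin, the inhibitory peptide of D cells. Its normalised counts ran from 136 through 321 to 746 in major and from 67.9 through 194 to 624 in minor clones, and these ranges overlapped almost fully. Its log2 difference was 0.58 (SE 0.24, adjusted p = 0.158), with the major clone higher in 12 of 20 tumours. *Sct* encodes secretin, which stimulates bicarbonate secretion. It ran from 115 through 235 to 424 in major and from 83.4 through 186 to 328 in minor clones. The difference was 0.37 (SE 0.16, adjusted p = 0.183), with 15 of 20 tumours higher in the major clone. *Cck*, encoding cholecystokinin, which drives gallbladder contraction and pancreatic secretion, ran from 57.6 through 500.4 to 1024 in major and from 136 through 315 to 666 in minor clones. Its difference was 0.45 (SE 0.20, adjusted p = 0.189), with 14 of 20 tumours higher in the major clone.

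The remaining 6 genes were further from the threshold. *Gip*, the incretin of K cells, had medians of 832 in major and 564 in minor clones and a log2 difference of 0.41 (SE 0.24, adjusted p = 0.317). It was higher in the major clone in 7 of 10 tumours of the female mouse and 4 of 10 of the male mouse. *Gcg*, which encodes the precursor of the glucagon-like peptides, had medians of 55.2 and 43.8 and a difference of 0.38 (SE 0.25, adjusted p = 0.382). *Nts*, encoding neurotensin, had medians of 65.3 and 36.3, yet its highest value, 617, was in a minor clone. Its difference was 0.47 (SE 0.34, adjusted p = 0.421), and its clones lay within 1.5-fold of each other in only 2 of 20 tumours. *Ghrl*, encoding ghrelin, had a mean difference of 0.47 (SE 0.38, adjusted p = 0.474) but a median difference of -0.02. Without female tumour 30, whose minor clone was listed at 0, the mean was 0.17 (SE 0.26, adjusted p = 0.744). *Tac1* had a difference of 0.40 (SE 0.29, adjusted p = 0.435) and was likewise listed at 0 in 1 minor clone, that of male tumour 19, without which the difference was 0.16 (SE 0.20, adjusted p = 0.667). *Pyy*, encoding peptide YY, had the smallest estimate, 0.15 (SE 0.21, adjusted p = 0.704), with 10 of 20 tumours higher in the major clone.

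Tumours differed in how many members were higher in the major clone. The number ran from 1 to 10 with a median of 7. All 10 members were higher in the major clone in female tumours 22 and 27, whereas 3 tumours had 2 or fewer. The clones of female tumour 22 are labelled with different segments. The clone difference itself was not called as different between the mice for any member (0 of 10, percentage called over all genes 0; unadjusted p under 0.05 for 0 members and 1228 genes, 7.48%) or between SI20 and SI10 tumours (0 of 10 and 0 again; 0 members and 672 genes, 4.09%, unadjusted), with limma's interaction test. For *Tph1* these interaction estimates were -0.09 (SE 0.33) and -0.17 (SE 0.39).

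Other enteroendocrine genes were read from lists beside the members. Of 9 tested genes for granins and prohormone processing, *Chgb*, a secretory granule protein, rose in major clones by a log2 difference of 0.89 (SE 0.17, adjusted p = 0.0207). The list had 1 call, 7 of 9 estimates above 0 and a median of 0.58. *Chga*, the other main granin, had 0.76 (SE 0.19, adjusted p = 0.0517) and *Pcsk1*, the prohormone convertase that cuts many of these hormones, 0.66 (SE 0.23, adjusted p = 0.104). Of 12 tested enteroendocrine transcription factors only *Neurog3* was called, at 0.92 (SE 0.22, adjusted p = 0.0438), and 9 of 12 estimates were above 0.

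The genes that act with *Tph1* on serotonin were not called in any of 11 tested cases. *Ddc*, which converts the *Tph1* product to serotonin, had a log2 difference of 0.34 (SE 0.13, adjusted p = 0.137). The serotonin transporter *Slc6a4* had 0.63 (SE 0.23, adjusted p = 0.111). The degrading enzymes *Maoa* and *Maob* had larger estimates, 0.90 (SE 0.24, adjusted p = 0.0609) and 1.21 (SE 0.32, adjusted p = 0.0557). *Slc18a1*, the vesicular transporter of enterochromaffin cells, was near 0 at 0.02 (SE 0.11). *Tph2*, the neuronal counterpart of *Tph1*, had -0.50 (SE 0.37). The list's median was 0.0043. None of 2 tested genes for other gut peptides, of 6 for nutrient and irritant sensors or of 9 for receptors of the hormones was called.

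Values of other cell types stood beside the *Tph1* result. The unadjusted p was under 0.05 for 22.4% of all genes, and 1 marker of these lists was called. All 7 goblet markers had unadjusted p under 0.05 with higher values in major clones, *Clca1* being called at 0.70 (SE 0.17, adjusted p = 0.0465), and the summed goblet markers ran from 92626 to 296994 in major and from 27290 to 248439 in minor clones. Fibroblast and muscle markers were higher in major clones at unadjusted p under 0.05 for 7 of 9 genes, with sums of 1825 to 26213 against 1760 to 24823. Leukocyte markers were so for 5 of 7, with sums of 1336 to 4471 against 816 to 5447. No fibroblast, muscle or leukocyte marker was called, and the ranges of all these sums overlapped. *Rn18s* fell by 1.46 on the log2 scale in major clones (adjusted p = 0.0375). Mast cell markers summed to 273 to 6064 in major and 145 to 4665 in minor clones, with 0 of 5 tested genes called and 5 of 5 estimates above 0. With the *Rn18s* share as a covariate the *Tph1* difference was 1.02 (adjusted p = 0.220), and with the fibroblast and muscle markers it was 0.85 (adjusted p = 0.0650). Across the 20 tumours the *Tph1* difference correlated (Spearman) at 0.81 with the goblet markers, 0.28 with leukocyte, -0.28 with fibroblast and muscle, 0.15 with mast cell and -0.40 with enteric neuron markers, and at 0.43 with the *Rn18s* share. The part of the goblet, leukocyte, mast cell and neuron markers in the *Tph1* result was not tested.

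The hormones were also compared at an equal level of general enteroendocrine markers. The covariate was the mean log2 value of 6 genes, *Chga*, *Chgb*, *Scg3*, *Neurod1*, *Insm1* and *Rfx6*. No member was called in this fit, in which 1.83% of all genes were called. *Tph1* kept an estimate above 0, 0.36 (SE 0.15, unadjusted p = 0.0256, adjusted p = 0.165, limma). The estimates of 6 of 10 members were below 0, as were 48.0% of all genes', among them *Cck* at -0.13 (SE 0.17), *Gip* at -0.23 (SE 0.21) and *Ghrl* at -0.49 (SE 0.35).

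Undivided tumours were then set against each clone class. These comparisons share samples with each other and with the comparison of the clones, so they are not independent of it. Against minor clones, 4 of 10 members were called higher in undivided tumours: *Tph1*, *Sst*, *Cck* and *Sct*. Among all 16491 genes tested 3.70% were called, 2.27% upward. The members' median log2 difference was 0.69, against -0.01 for all genes. *Gip*, *Pyy* and *Ghrl* had estimates above 0 that were not called, and *Gcg*, *Nts* and *Tac1* lay near 0.

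*Tph1* ran from 101 through 307 to 772 normalised counts in undivided tumours, and 22 of 23 were above the minor clones' median of 121. Its log2 difference was 1.13 (SE 0.21, 2.19-fold, adjusted p = 0.00862). *Sst* ran from 72.0 through 389 to 2856, with 21 of 23 above the minor median of 194. The upper end lay far beyond the highest clone. Its difference was 1.07 (SE 0.30, 2.10-fold, adjusted p = 0.0366), and without the male tumours 15, 17 and 18 it was 0.89 (adjusted p = 0.0620). *Cck* ran from 130 through 552 to 1897, with 18 of 23 above the minor median of 315, and differed by 0.87 (SE 0.23, 1.83-fold, adjusted p = 0.0271). *Sct* ran from 137 through 255 to 1319, with 19 of 23 above the minor median of 186, and differed by 0.83 (SE 0.21, 1.78-fold, adjusted p = 0.0232). The ranges of the groups overlapped for every member. Leaving out 1 tumour at a time in 43 fits, *Tph1*, *Cck* and *Sct* were called each time. *Sst* lost its call in 11 fits (0.96 to 1.06, adjusted p 0.0522 to 0.0604), those without female tumours 5, 26 or 30 or male tumours 2, 5, 17, 19, 20, 26, 27 or 29.

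The uncalled hormones had smaller estimates or wider errors. *Gip* had a difference of 0.63 (SE 0.26, adjusted p = 0.159), *Ghrl* 0.74 (SE 0.39, adjusted p = 0.290) and *Pyy* 0.59 (SE 0.37, adjusted p = 0.395). The *Ghrl* estimate was 0.42 (SE 0.25, adjusted p = 0.367) without female tumour 30, whose minor clone was listed at 0. *Gcg* had 0.06 (SE 0.43), *Tac1* 0.07 (SE 0.37) and *Nts* -0.10 (SE 0.67). *Tac1* was -0.24 without male tumour 19, and the signs of all 3 changed with scaling or pseudocount. *Nts* spread from 0 to 357 in undivided tumours, so a wide interval surrounds its estimate. All 4 calls were lost in the female mouse alone, where *Tph1* had 0.81 (adjusted p = 0.479), *Cck* 0.67, *Sst* 0.52 and *Sct* 0.51 (adjusted p of 0.554 to 0.687 for these 3). In the male mouse alone *Tph1* had 1.42 (adjusted p = 0.0187), *Sst* 1.55, *Sct* 1.12 and *Cck* 1.05 (adjusted p = 0.0539). With mouse and segment as covariates in SI10 and SI20 samples, *Tph1* (1.07, adjusted p = 0.0178) and *Sct* (0.84, adjusted p = 0.0317) were called, and *Cck* and *Sst* missed the threshold at adjusted p of 0.0517 and 0.0534.

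Among 9 tested granin and processing genes *Chgb* (0.95, adjusted p = 0.0107), *Chga* (0.93, adjusted p = 0.0155) and *Pcsk1* (0.84, adjusted p = 0.0370) rose in undivided tumours over minor clones, while *Pam*, which amidates peptide hormones, fell by 0.45 (adjusted p = 0.0304); 4 genes of this list were called upward and 1 downward. *Lmx1a* (1.10, adjusted p = 0.0295) and *Fev* (1.16, adjusted p = 0.0398), transcription factors of the serotonin lineage, were 2 of 14 factors called. *Cartpt*, a peptide precursor, rose by 1.41 (adjusted p = 0.0112) as 1 of 3 other gut peptides, and *Sstr1*, a somatostatin receptor, by 1.21 (adjusted p = 0.0162) as 1 of 10 receptors. None of 11 serotonin genes and none of 7 sensors was called. *Clca1* (0.97, adjusted p = 0.0263) was 1 of 7 goblet markers called, and the T cell marker *Cd3e* (0.94, adjusted p = 0.0437) 1 of 7 leukocyte markers. Of 6 neuronal markers *Tubb3* fell by 1.35 (adjusted p = 0.0193), and 0 of 7 mast cell markers was called. The part of these cell types was not tested.

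Against major clones no member was called, and 0.0121% of 16510 genes were. Unadjusted p was under 0.05 for 2 members and for 12% of all genes (1973). *Sct* had a log2 difference of 0.47 (SE 0.21, adjusted p = 0.381) and *Tph1* 0.42 (SE 0.20, adjusted p = 0.406). *Sst* (0.50, SE 0.28), *Pyy* (0.42, SE 0.35), *Cck* (0.42, SE 0.26), *Ghrl* (0.30, SE 0.26) and *Gip* (0.24, SE 0.27) were also above 0, whereas *Gcg* (-0.32, SE 0.40), *Nts* (-0.56, SE 0.62) and *Tac1* (-0.33, SE 0.25) were below. In the female mouse alone *Gip*, *Sst* and *Ghrl* turned below 0. The errors are wide enough that these values do not show equal expression.

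**Figure D2:**
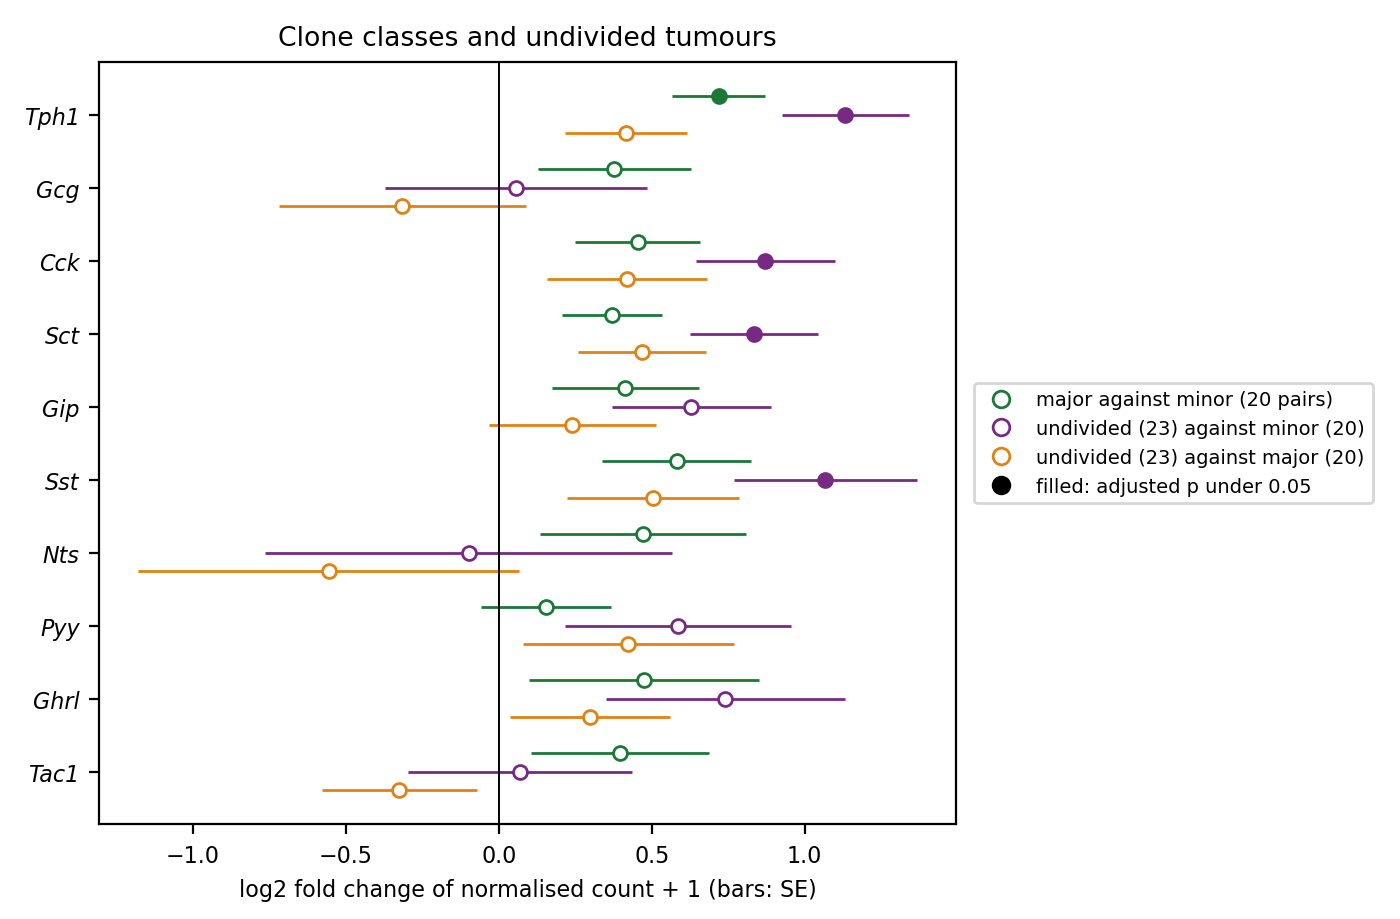
Log2 fold change of normalised count + 1 with its SE for each member, major against minor clones (20 pairs), undivided tumours (23) against minor clones (20) and undivided tumours against major clones (20). Filled points have an adjusted p under 0.05: *Tph1* for major against minor, and *Tph1*, *Cck*, *Sct* and *Sst* for undivided against minor.

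Segments were compared within undivided tumours, 12 from SI10 and 11 from SI20, with the mouse as a covariate. No member was called, and 0.170% of 16511 genes were. The unadjusted p was under 0.05 for 8 of 10 members, against 7.62% of all genes, with 7 lower and 1 higher in SI20, where 4.14% of all genes were lower and 3.48% higher by the same rule. The 7 with lower values were *Sst*, *Sct*, *Tph1*, *Gip*, *Cck*, *Ghrl* and *Pyy*, and the 1 with higher values was *Gcg*. The members' median log2 difference was -0.86, and that of all genes was -0.00038.

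*Sst* came nearest to the threshold. It ran from 265 through 668 to 2856 in SI10 and from 72.0 through 303 to 660 in SI20, and no SI20 tumour reached the SI10 median. The difference was -1.36 (SE 0.30, adjusted p = 0.0628), and leaving out either female tumour 6 or male tumour 4 brought it under the threshold. *Sct* ran from 159 through 503 to 1319 in SI10 and from 137 through 250 to 392 in SI20, again with 0 of 11 above the SI10 median. Its difference was -0.98 (SE 0.26, adjusted p = 0.188). *Tph1* ran from 174 through 458 to 772 in SI10 and from 101 through 185 to 498 in SI20, with 1 of 11 above the SI10 median. Its difference was -0.85 (SE 0.23, adjusted p = 0.197). The wide upper range in SI10 came from the male mouse, where the SI10 medians were 1144 for *Sst*, 629 for *Sct* and 538 for *Tph1*, against 285, 211 and 224 in the female mouse.

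*Gip* had medians of 1380 in SI10 and 796 in SI20 and a difference of -0.98 (SE 0.34, adjusted p = 0.481). *Cck* had medians of 780.5 and 407 and -0.87 (SE 0.30, adjusted p = 0.481). *Ghrl* had 217 and 166 and -0.77 (SE 0.29, adjusted p = 0.545), and *Pyy* 120 and 76.1 and -1.22 (SE 0.53, adjusted p = 0.603). Proglucagon and neurotensin went the other way. *Gcg* had medians of 22 and 66.9, with 10 of 11 SI20 tumours above the SI10 median, and a difference of 1.3 (SE 0.60, adjusted p = 0.637). *Nts* had medians of 26.2 and 86.7, also with 10 of 11, and 1.74 (SE 0.96, adjusted p = 0.682). Among SI10 tumours of the male mouse *Nts* had a median of 3.05 and a range of 0 to 258. *Tac1* had medians of 58.5 and 63.0 and a difference of 0.13 (SE 0.41), whose sign changed with the samples used.

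**Figure D3:**
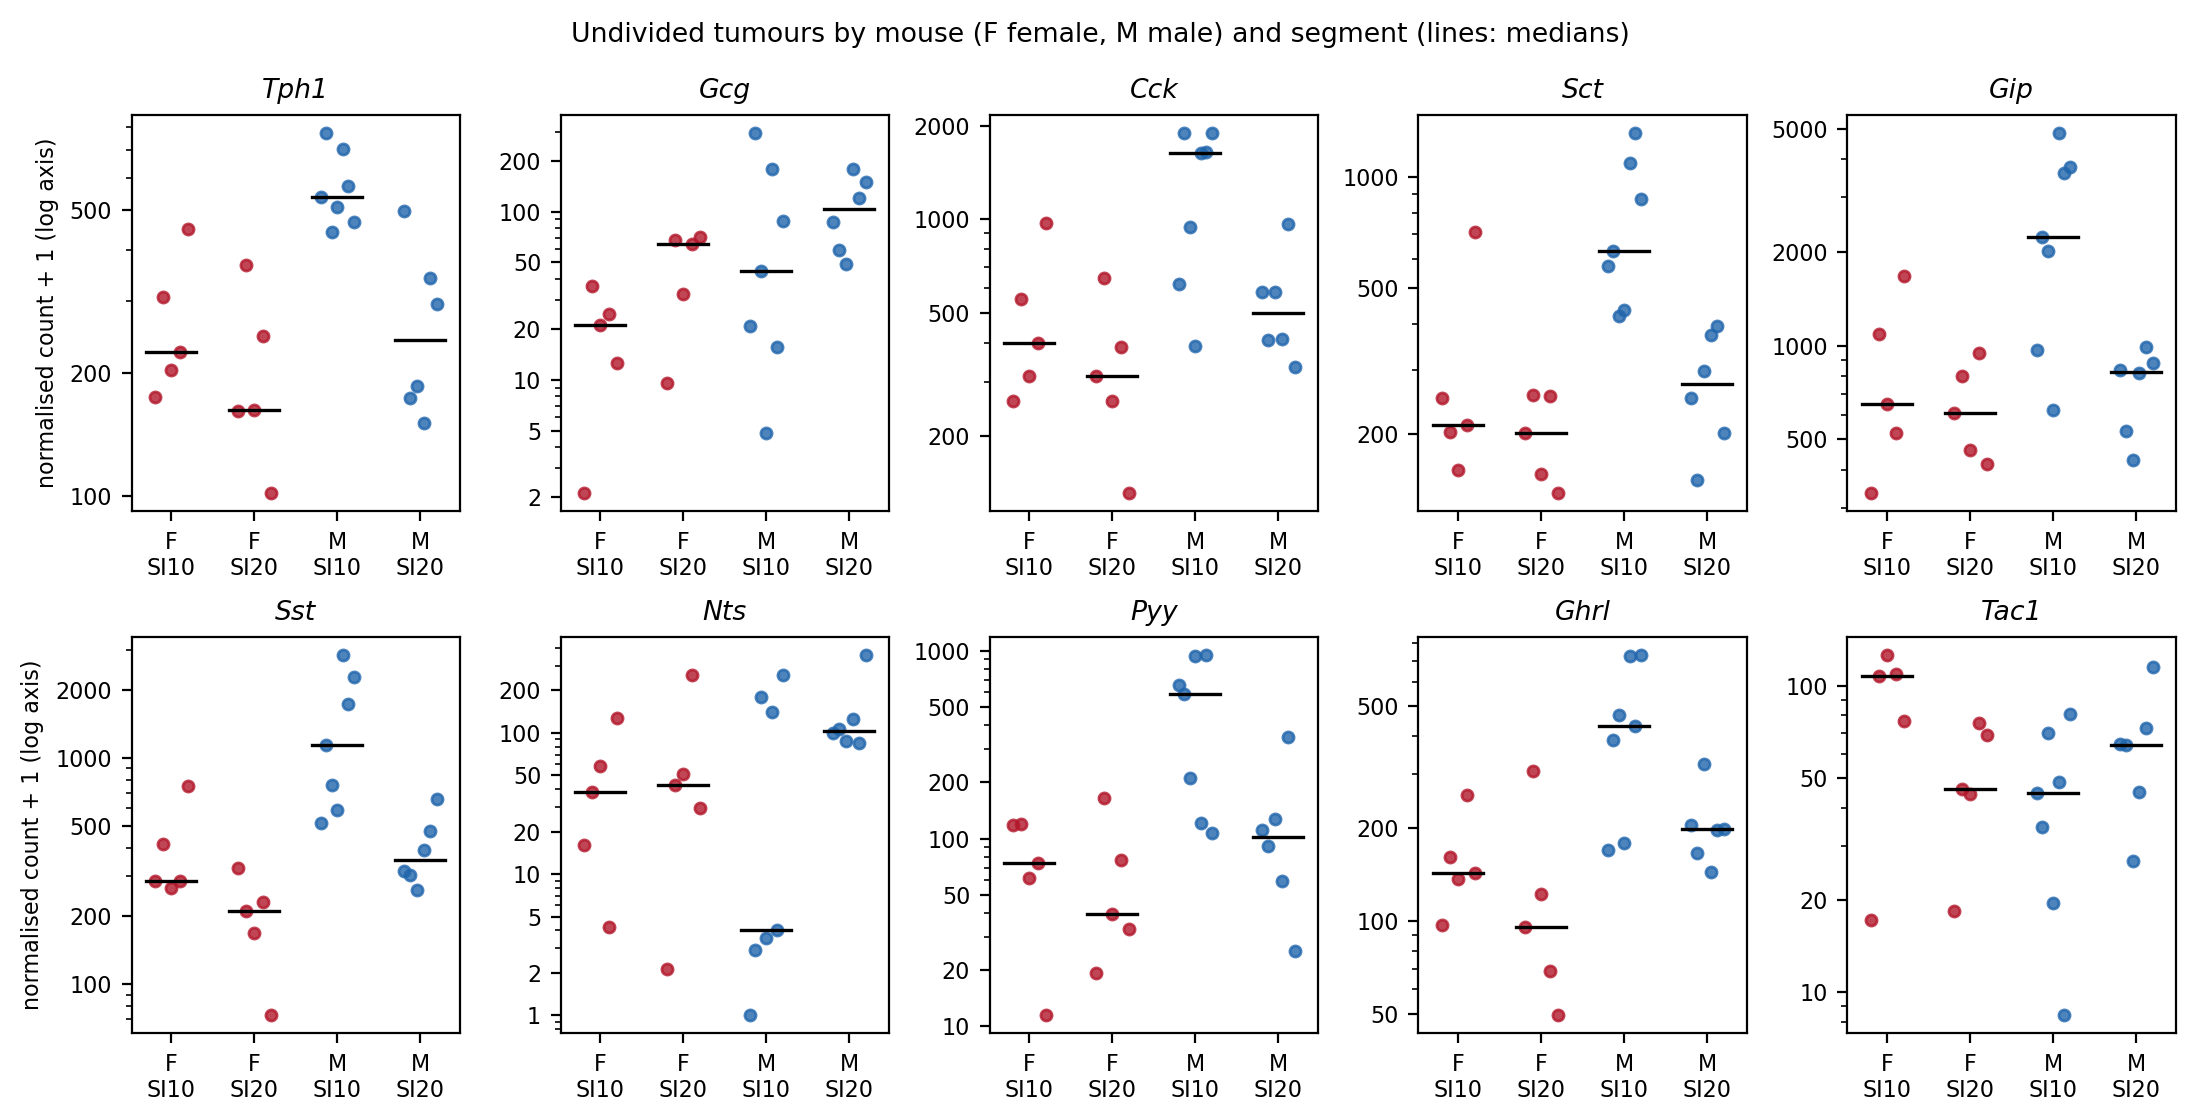
Normalised count + 1 on a log axis for each member in the 23 undivided tumours, by mouse (F, female; M, male) and segment, with a line at each median. SI10 tumours of the male mouse held the highest medians of *Tph1*, *Cck*, *Sct*, *Gip*, *Sst*, *Pyy* and *Ghrl*, whereas the highest median of *Gcg* and of *Nts* was in SI20 tumours of the male mouse.

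At an equal level of the 6 enteroendocrine markers, the segment fit called no member and 0.224% of genes. *Gcg* (1.76, SE 0.40) and *Sst* (-1.23, SE 0.28) had the same adjusted p of 0.0721, *Tph1* had -0.74 (SE 0.22, adjusted p = 0.238), *Sct* -0.95 (SE 0.27, adjusted p = 0.226) and *Nts* 2.18 (SE 0.90, adjusted p = 0.610). No member's segment difference was called as different between the mice (0 of 10, with 0 of all genes; unadjusted p under 0.05 for 0 members and 870 genes, 5.27%, limma). Among granin and enteroendocrine factor genes, *Scg2* (-1.23), *Scg5* (-0.92), *Chgb* (-0.58) and *Neurod1* (-0.87) were lower in SI20 without the covariate. Their unadjusted p ran from 0.00568 to 0.0210 (limma), none was called, and *Insm1* (0.23) and *Pam* (0.18) lay above 0. Beside the segment result, 8 of 9 fibroblast and muscle markers and 7 of 8 mast cell markers had estimates above 0 in SI20, and *Rn18s* had -1.20 (unadjusted p = 0.0848). Of 7 goblet markers, *Clca1* had -1.14 (adjusted p = 0.0560), while *Muc2* had 0.78 and *Agr2* 1.07 (unadjusted p of 0.0330 and 0.0296). The leukocyte marker *Cd3e* had -0.81 (unadjusted p = 0.0213). The part of the goblet, leukocyte and mast cell markers in the segment result was not tested. With the fibroblast and muscle markers as a covariate *Sst* had -1.23 (adjusted p = 0.207), and without male tumours 15, 17 and 18 it had -1.25 (adjusted p = 0.212).

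The divided tumours gave a second view of the segments in other tumours of the same mice. Each tumour's clones were averaged, giving 7 SI10 and 10 SI20 tumours. No member was called, and 0.280% of 16436 genes were. *Nts* was nearest: its clone means ran from 5.0 to 47.1 in SI10 tumours and from 20.9 to 332 in SI20 tumours, and 10 of 10 SI20 tumours were above the SI10 median. Its log2 difference was 2.09 (SE 0.46, adjusted p = 0.0857, limma), and a permutation test gave p = 0.00045. Without female tumour 23 it was called, at 2.38 (adjusted p = 0.0165). *Gcg* had 1.09 (SE 0.35, adjusted p = 0.228), with 9 of 10 SI20 tumours above the SI10 median. These 2 were the members with an unadjusted p under 0.05, against 14.3% of all genes. Beside them, the goblet markers *Muc2* (1.03), *Agr2* (0.92) and *Spdef* (0.81) were higher in SI20 and *Clca1* (-0.79) lower. Their unadjusted p ran from 0.0164 to 0.0204 (limma). The tuft cell marker *Avil* had 0.71 and the leukocyte marker *Lyz2* -0.78 (unadjusted p of 0.0313 and 0.00452). The enteric neuron marker *Stmn2* had -1.27 (unadjusted p = 0.00864, limma). The epithelial markers *Krt20* (0.60), *Krt8* (0.39) and *Vil1* (0.33) were higher in SI20, with unadjusted p from 0.0178 to 0.0490 (limma). None of these markers was called, and their part in the segment result was not tested. The enteroendocrine genes *Scg2* (0.22), *Scg5* (0.18), *Chgb* (0.30) and *Neurod1* (0.07), lower in SI20 of undivided tumours, lay above 0 here without a call.

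The hormones with lower values in SI20 of undivided tumours lay nearer 0 here. *Sct* had -0.04 (SE 0.14), *Tph1* -0.19 (SE 0.23), *Cck* -0.24 (SE 0.22), *Sst* -0.28 (SE 0.25), *Gip* -0.40 (SE 0.24) and *Ghrl* -0.40 (SE 0.24). *Pyy* had 0.18 (SE 0.27) and *Tac1* 0.66 (SE 0.39). Whether these differed from the undivided tumours was not tested. In the 2 SI30 tumours, both from the female mouse, clone means of *Nts* were 53.1 and 86.5, and those of *Gcg* were 49.0 and 65.1. *Tph1* had 99.5 and 128 there.

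**Figure D4:**
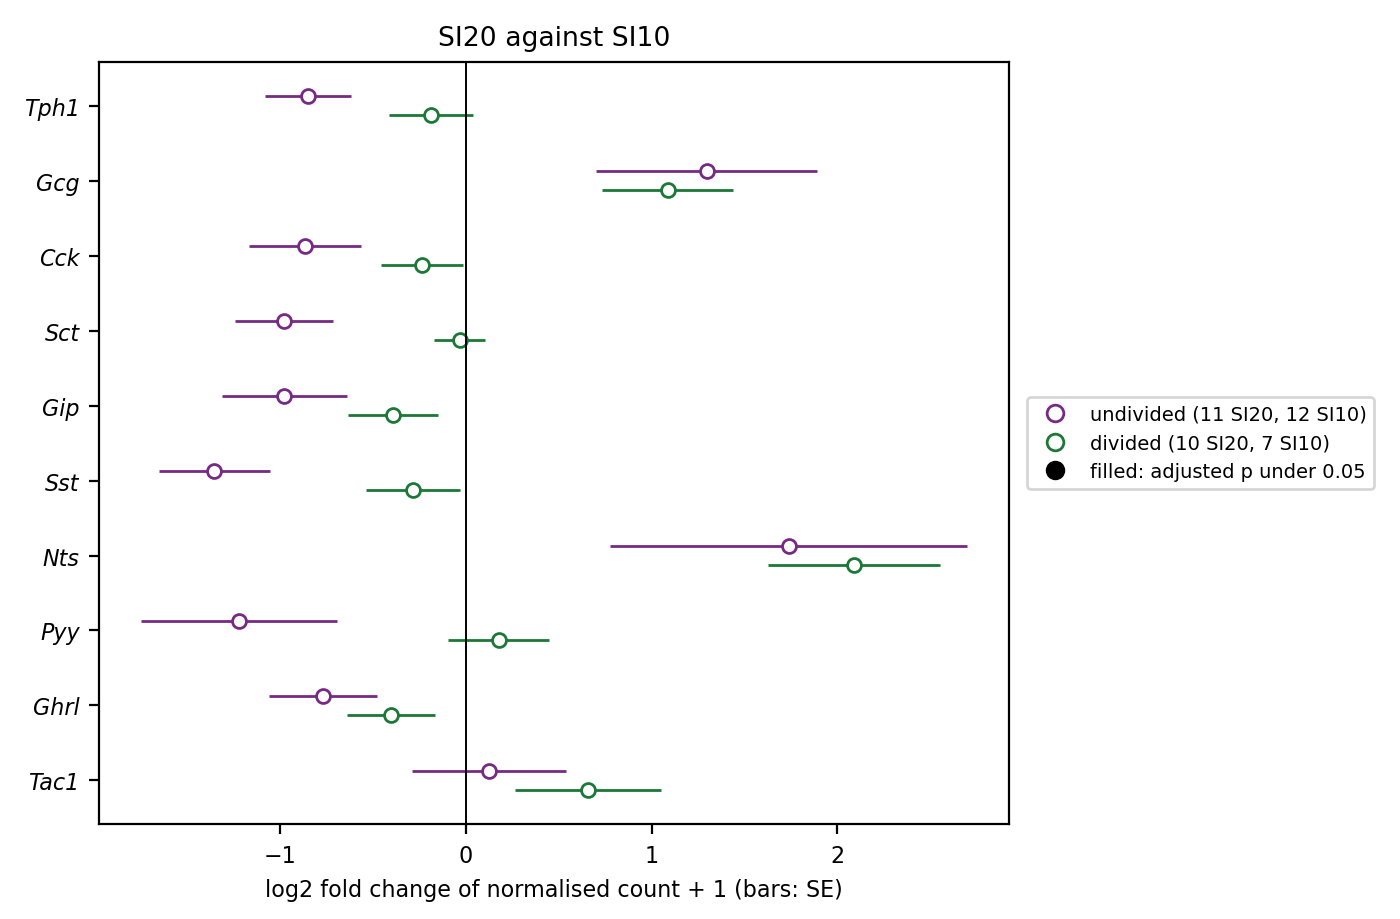
Log2 fold change of normalised count + 1, SI20 against SI10, with its SE for each member in undivided tumours (11 SI20, 12 SI10) and in divided tumours (10 SI20, 7 SI10). No point is filled, since no adjusted p was under 0.05. *Gcg* and *Nts* lie above 0 in both sets, and *Sst*, *Sct* and *Tph1* lie at -1.36, -0.98 and -0.85 in undivided tumours and at -0.28, -0.04 and -0.19 in divided tumours.

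The mice differed in the undivided tumours. With the segment as a covariate, 6 of 10 members were called higher in the male mouse, where 19.1% of all genes were called and 10.3% upward. *Pyy* differed by 1.80 (SE 0.53, adjusted p = 0.0212), *Sst* by 1.38 (SE 0.30, adjusted p = 0.00295), *Ghrl* by 1.15 (SE 0.29, adjusted p = 0.00833), *Cck* by 1.05 (SE 0.31, adjusted p = 0.0190), *Sct* by 0.94 (SE 0.26, adjusted p = 0.0160) and *Tph1* by 0.78 (SE 0.23, adjusted p = 0.0219). *Ghrl* was above the female median in 13 of 13 male tumours, and *Sst* and *Cck* in 12 of 13. *Gip* (0.89, adjusted p = 0.0659) and *Gcg* (1.49, adjusted p = 0.0818) were not called, nor were *Nts* (0.50) and *Tac1* (-0.35). The *Tph1* call was lost without female tumour 1 (0.69, adjusted p = 0.0524). *Gip* was called without female tumour 9, male tumour 4 or male tumour 8, and *Gcg* without male tumour 4. Male tumours 15, 17 and 18, which were among the samples least like the rest, are all in the male group, and without them all 6 members were called (0.77 to 2.0). Goblet markers were called higher in the male mouse in 3 of 7 cases, *Clca1* (1.40, adjusted p = 0.000493), *Zg16* (1.05, adjusted p = 0.0111) and *Tff3* (0.94, adjusted p = 0.0106). *Fcgbp* (0.49), *Agr2* (0.36) and *Muc2* (0.25) were above 0 but not called, and *Spdef* had -0.21. Their sums ran from 121196 to 361781 in the male and from 47619 to 230407 in the female mouse. The medians of the summed tuft cell markers were 2862 and 7656, with 0 of 4 genes called. Of 6 neuronal markers *Stmn2* was lower in the male mouse, at -2.77 (adjusted p = 0.0210), and of 7 leukocyte markers *S100a8*, at -2.84 (adjusted p = 0.0123). The part of these cell types was not tested. In the divided tumours, a comparison added after seeing the data, *Pyy* was the only member called, at 1.41 (SE 0.27, adjusted p = 0.00425), where 13.1% of genes were. *Tph1* (0.06, SE 0.23), *Sst* (0.07, SE 0.25) and *Ghrl* (0.02, SE 0.24) were near 0 there. The unadjusted p was under 0.05 for 6 members, 5 higher and 1 lower in the male mouse, and for 29.8% of all genes. Beside *Pyy* these were *Nts* (1.34, SE 0.46, adjusted p = 0.0637), *Gcg* (0.95, SE 0.35, adjusted p = 0.0847), *Cck* (0.59, SE 0.22, adjusted p = 0.0863), *Sct* (0.31, SE 0.14, adjusted p = 0.146) and, lower, *Tac1* (-0.98, SE 0.39, adjusted p = 0.105). *Gip* had 0.40 (SE 0.24), and the members' median was 0.36. Of the serotonin and receptor lists, *Maoa* (1.18, adjusted p = 0.0138) was called higher and *Sort1* (-0.61, adjusted p = 0.00482) lower in the male mouse's divided tumours (limma). Markers of other cell types were called in these divided tumours too (limma). The mast cell marker *Mcpt1* was higher in the male mouse, at 1.95 (adjusted p = 0.0478). The leukocyte markers *Cd79a* (-1.92, adjusted p = 0.0193) and *Cd68* (-0.53, adjusted p = 0.0437) were lower. Their part in the *Pyy* result was not tested.

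Correlations between the members were read over the 23 undivided tumours and over the 20 clone differences, for a set of 6 genes chosen after the values were seen. Spearman correlations among *Tph1*, *Cck*, *Sct*, *Gip*, *Sst* and *Ghrl* ran from 0.58 to 0.83 in the 15 pairs of undivided tumours' levels and from 0.42 to 0.88 in clone differences. *Gcg* and *Nts* correlated with these 6 at -0.05 to 0.37 in undivided tumours, and with each other at 0.50. In clone differences they were less apart, at 0.09 to 0.65 with the 6, *Gcg* and *Cck* reaching 0.65. *Pyy* correlated with *Tph1* at 0.67 in undivided tumours and 0.40 in clone differences. *Tac1* ran from -0.41 to 0.55 with the others. These points share mice, segments and the scaling of each sample, so the correlations describe them only. Among the clone differences *Tph1* correlated at 0.60 with the 6 enteroendocrine markers. *Cck* correlated at 0.85 with the enteroendocrine and 0.83 with the goblet markers.

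**Figure D5:**
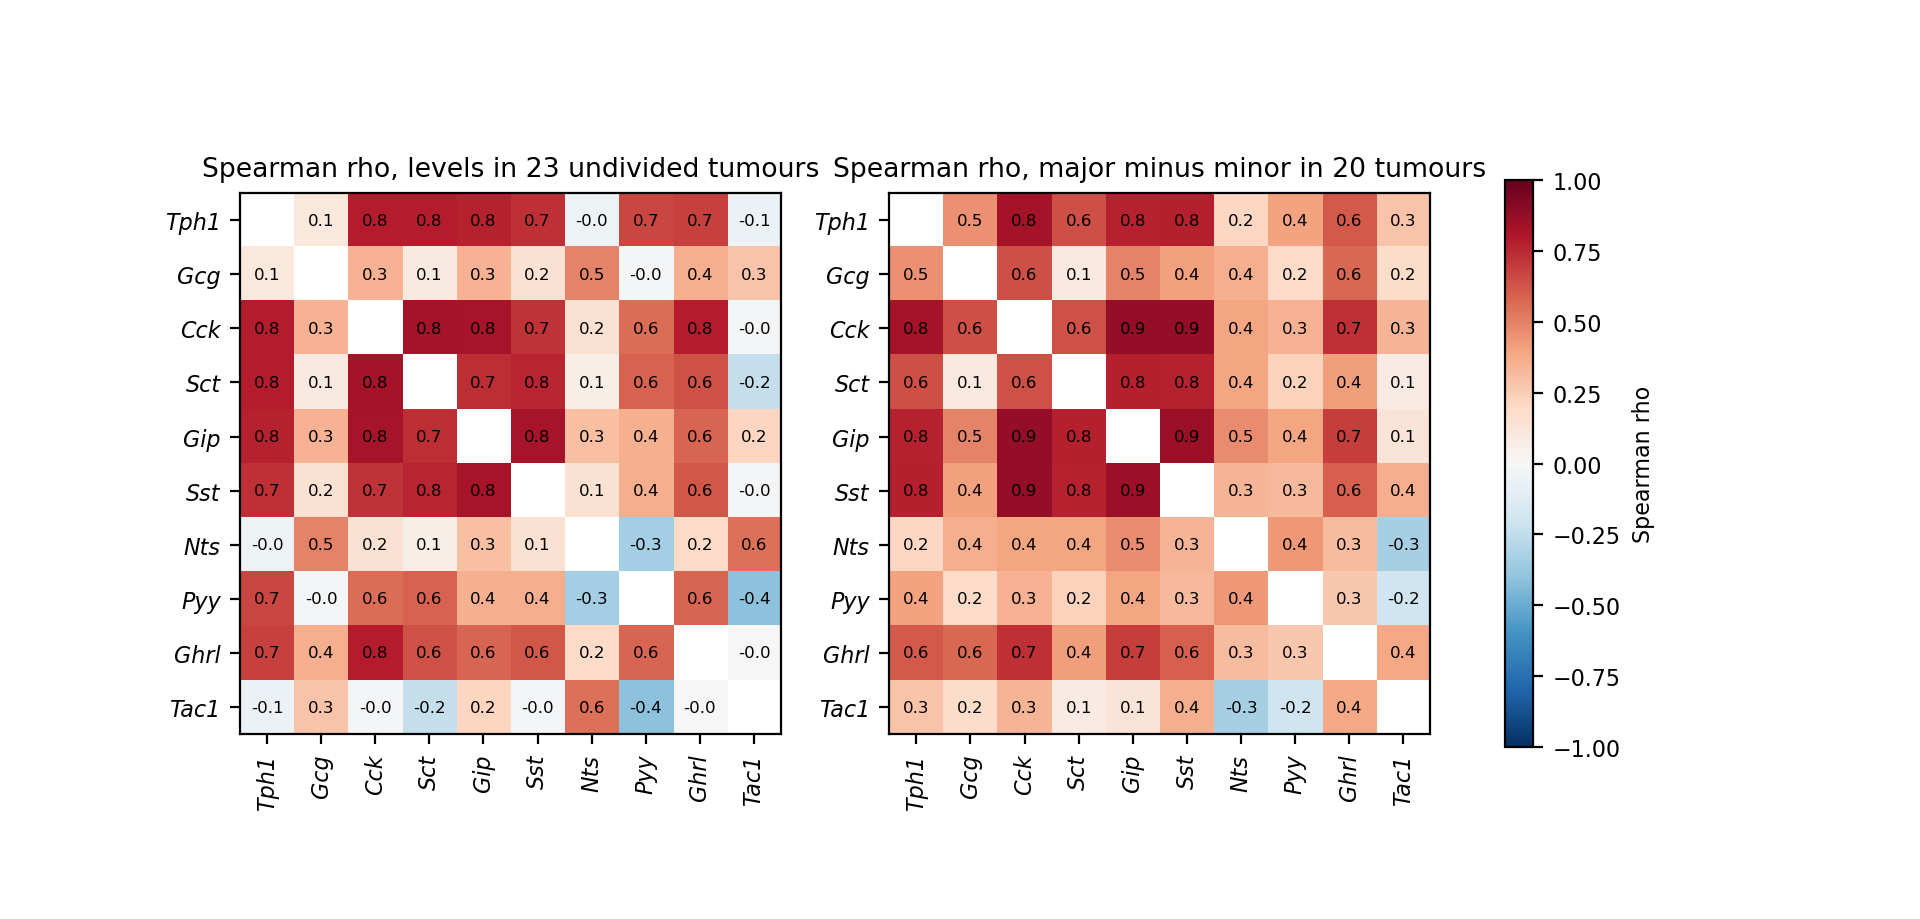
Spearman correlation between members, from levels in 23 undivided tumours (left) and from major minus minor log2 differences in 20 tumours (right). *Tph1*, *Cck*, *Sct*, *Gip*, *Sst* and *Ghrl* share high values, from 0.58 to 0.83 on the left, where *Gcg*, *Nts* and *Tac1* stand lower with them, and on the right *Gcg* and *Nts* reach up to 0.65 with them.

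Among 16327 genes, those most like each member across the 23 undivided tumours were mostly not other hormones. *Tph1* was most like *Clca1* (0.87), *Wnt4* (0.87) and *Gsto1* (0.86), and its clone differences correlated with those of *Clca1* at 0.77. *Gip* was most like *Chgb* (0.91), *Gimap7* and *Gimap3*. *Gcg* was most like the serotonin genes *Slc6a4* (0.86) and *Maoa* (0.86), followed by *Lrig3*. *Cck* was most like *Bpnt1* (0.94), *Smpdl3b* and *Chpt1*, *Sst* most like *Mettl7b* (0.93), *Gm44386* and *Fbp1*, *Sct* most like *Gm15283* (0.92), *Ndufc1* and *Sod1*, and *Ghrl* most like *Gde1* (0.91), *Mlycd* and *Rmdn1*. *Pyy* was most like *Tmem229b* (0.88), *Gm16054* and *Tmem127*, and *Nts* most like *Vwa1* (0.80), *Cyp2u1* and *Car8*. *Tac1* was most like the stromal gene *Svep1* (0.86), *Rgs14* and *Ighv5-4*, and its clone differences ran opposite to those of *Svep1* at -0.68. With the first gene named for each, clone differences correlated at 0.75 for *Ghrl*, 0.74 for *Gip*, 0.66 for *Cck* and 0.57 for *Sst*. They correlated at 0.52 for *Gcg*, 0.39 for *Sct*, 0.35 for *Nts* and 0.08 for *Pyy*. The genes were picked by rank from tumours that share mice and segments, so the correlations describe these tumours only.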

How the data were processed

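The deposited values are signal, normalised counts that the authors made from stranded RNA-seq. Per the submitters' processing notes, FastQC 0.11.9, Trimmomatic 0.39, STAR 2.7.7a, Picard 2.27.3 and Salmon 1.9.0 were used with GRCm39. The values are not whole numbers and raw counts were not used here, so a count model was not fitted. Scaling each sample can move every gene together. The members and lists were chosen with earlier results of these data known. Clone classes came from the study's source data, without values. Genes with a mean of at least 10 were tested on log2(value + 1) with limma 3.58.1 (R 4.3.3, trend), with tumour as a block between clones. Same-tumour clones had a median correlation of 0.265, with 17 of 20 above 0.1. Clones of different tumours had a median of -0.0198, with 92 of 380 above 0.1 and a highest value of 0.586. The best match was the own partner in 9 of 20 cases, and the pairing is their shared tumour. Permutation tests used 100000 resamples, two-sided. Named genes were the members, *Chga*, *Chgb*, *Rn18s*, the 3 genes most like each member and up to 4 called genes per list; others named were chosen after their values were seen. Scripts were tested on simulated data. Alternatives changed pseudocount, filter, scaling, covariates, mouse and 1 tumour at a time. Read depth per sample is not given in the sources used here.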

Additional observations from a re-analysis of the deposited data

Results flagged for a closer look

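In 40 groups of undivided tumours, 1 member in 1 segment of 1 mouse each, the highest or lowest tumour was compared with its nearest neighbour, and 6 stood far apart. The rule is set to mark about 1 in 20 such groups by chance. It was applied to normalised counts and not to their log2 values. Its rate for such counts was not tested, so the number flagged cannot be set against chance. *Sct* was 710 in tumour 5 of the female mouse's SI10 tumours, where the next value was 250.05. *Nts* was 255 in female SI20 tumour 9, with the next at 50.5, and 357 in male SI20 tumour 18, with the next at 124. *Pyy* was 346 in male SI20 tumour 10, with the next at 126. *Ghrl* was 307 in female SI20 tumour 7, with the next at 121, and 323 in male SI20 tumour 8, with the next at 204. All 6 were the highest of their group.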

How the results depend on the processing

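Of 880 values under other settings 838 kept their direction and side of the threshold, 15 lost the call, 1 gained it and 26 changed sign. Of 1690 values with 1 tumour left out, 1634, 19, 7 and 30 did so. Between clones, members called were 0 without the replicate block (*Tph1* 0.72, adjusted p = 0.136), in either mouse alone, with the *Rn18s* share or fibroblast markers as covariates, without female tumour 22 and by the exact Wilcoxon test (*Tph1* adjusted p = 0.0537), and 0 to 1 with 1 tumour left out (*Tph1* 0.65 to 0.77). *Ghrl* was -0.0423 in the male mouse alone. Between undivided tumours and minor clones, members called were 0 in the female mouse and 2 with mouse and segment as covariates, and 3 to 4 with 1 sample left out. *Nts* became 0.0625 with pseudocount 5, 0.0512 with quantile normalisation, 0.42 in the female mouse and 0.24 with the covariates. *Gcg* became -0.0387 and -0.0532 with equal sums with and without *Rn18s*, and -0.29 in the female mouse. *Tac1* became -0.0130 with pseudocount 5, -0.0177 and -0.0234 with these sums, -0.16 in the female mouse and, with the *Rn18s* share, -0.0775. Leaving out 1 sample gave *Gcg* -0.10 to 0.24, *Tac1* -0.24 to 0.17 and *Nts* -0.27 to 0.14. Against major clones, the female mouse alone gave *Gip* -0.30, *Sst* -0.36, *Ghrl* -0.35, *Chga* -0.26 and *Chgb* -0.28, the male mouse gave *Gcg* 0.0931, and *Chgb* was -0.0285 with equal sums, -0.0144 with covariates and -0.00057 to 0.12 with 1 sample left out. For segments in undivided tumours *Tac1* was -0.66 in the female mouse, -0.15 without male tumours 15, 17 and 18, -0.16 with fibroblast markers and -0.0889 to 0.30 with 1 left out, and members called were 0 to 1. In divided tumours members called were 0 to 1 with 1 left out, *Sct* was 0.0409 in the female mouse and -0.0927 to 0.0278 with 1 left out, *Chga* -0.0753 and *Chgb* -0.15 in the female mouse, and *Sst* 0.13 in the male mouse. Between the mice *Nts* ran from -0.0301 to 0.88, members called from 5 to 8. At equal enteroendocrine markers, the clone comparison gave *Sst* 0.0159 without *Chga* in the index and *Gcg* -0.0428 with pseudocount 5. With an index of *Chga* and *Chgb* only it gave *Gcg* -0.21, *Sct* -0.0381 and *Chga* -0.13, and the segment comparison gave *Chga* 0.11. *Chga* is part of that index, so its estimate must there be equal and opposite to that of *Chgb* and is no separate result. The causes were not tested.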
